A study of Mus musculus and Homo sapiens with 8 samples.

Results

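The genes described here encode the enzymes that couple drugs, bilirubin, steroids, bile acids and electrophiles to glucuronic acid, glutathione or sulfate. They were taken by gene symbol from a table of expression in mouse small intestinal crypts. Every entry of the UDP-glucuronosyltransferase families Ugt1a, Ugt2 and Ugt3a and of the cytosolic sulfotransferases (Sult) was taken. So was every entry of the glutathione S-transferase classes alpha, kappa, mu, omega, pi, theta and zeta (Gsta to Gstz). The microsomal glutathione S-transferases (Mgst) were taken as well. The rule found 35 genes of 13359 distinct genes in the table: 7 Ugt, 22 Gst and Mgst, and 6 Sult genes. No Ugt3a gene was among them, and family members that the table does not list were not analysed here. All 35 passed the filter used for testing, which asks for at least 1 FPKM (fragments counted per length of the gene and per size of the library) in at least 2 libraries. Sult6b2 passed through the libraries labelled knockout alone.

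Conjugation is the step of detoxification that follows oxidation by cytochrome P450 enzymes. A transferase joins the substrate to an activated donor, which is UDP-glucuronic acid for the Ugt enzymes of the endoplasmic reticulum, the tripeptide glutathione for the Gst and Mgst enzymes, and the sulfate donor PAPS for the Sult enzymes of the cytosol. The conjugate is then pumped out of the cell by ABC transporters. In the small intestine these enzymes are best known from the absorptive enterocytes of the villus, which meet compounds from food first.

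The libraries came from untreated C57BL/6 mice of 2 months. Every mouse carried the Min allele of the tumour suppressor gene Apc, so no group here has intact Apc. The control group, labelled APCmin+, has 2 libraries, and the other group, labelled APCmin+; Zmynd8IEC-/-, has 2 more. ZMYND8 is a chromatin reader protein, and the series' title names it as a regulator of the mevalonate pathway. Each library is a pool of RNA from 3 mice, mixed by equal mass. The sources used here do not give the promoter that drives the deletion, nor do they say how the pools of a group differ, so p-values measure only the spread between these pools.

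Zmynd8 itself had no lower value under the knockout label and so does not back it. It stood at 6.94 and 4.73 FPKM in the control libraries and at 7.30 and 7.65 FPKM in the other 2, a log2 fold change of 0.33 (SE 0.18, limma adjusted p = 0.293). The second group is therefore named by its knockout label throughout, and every direction rests on that label. Library totals, inferred from the FPKM values, ran from 44718091 to 48778712 reads. Crypt markers were present: 10 of 10 stem cell markers and 9 of 9 Paneth cell markers were listed, and so were 16 of 16 markers of absorptive enterocytes. Over the 12948 genes tested, the log2 fold changes had a median of -0.15, and median-ratio scaling, which sets the typical gene to no change, brought it to -0.01.

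Most conjugation enzyme genes had higher values with the knockout label. The log2 fold change was positive for 27 of the 35 (32 with median-ratio scaling, where 49.1% of all genes are positive, and 32 with quantile normalization) and negative for 8, with a median of 0.36, or 0.51 above the median of all genes. Across all genes tested 28.3% had a positive value. The glutathione transferase genes Gstm3 and Gsta1 rose past the threshold, an adjusted p under 0.05 by limma over all genes tested, and no member fell. That is 2 of 35, where 0.595% of all genes were called higher and 0.131% lower. With an unadjusted p under 0.05 came 19 members higher and 1 lower, against 7.49% and 19.1% of all genes. Limma voom, a test on the whole reads recovered from the table, called 3 members higher (Gstm3, Gsta1 and Sult1b1) and 0 lower, where 0.95% of all genes were called higher. The authors' deposited table gave 4 members as higher at a q-value under 0.05 and 0 as lower, against 1.26% and 0.876% of all genes, and Gstm3 was the only 1 of the 4 that limma also called.

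In 23 of the 35 genes both libraries labelled knockout lay above both control libraries, which is 65.7% of the members against 14.9% of all genes tested. Sult6b2, which had to differ to pass the filter, is among these 23 and among the 19. In 3 genes (Gstm5, Gstp2 and Gstz1) both lay below both controls, or 8.57% against 48.5%. After median-ratio scaling the counts were 26 and 1, where the shares of all genes were 28.2% and 28.0%. The summed level of the 35 genes was 1336 and 1273 FPKM in the control libraries and 1739 and 1819 FPKM with the knockout label.

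**Figure D1:**
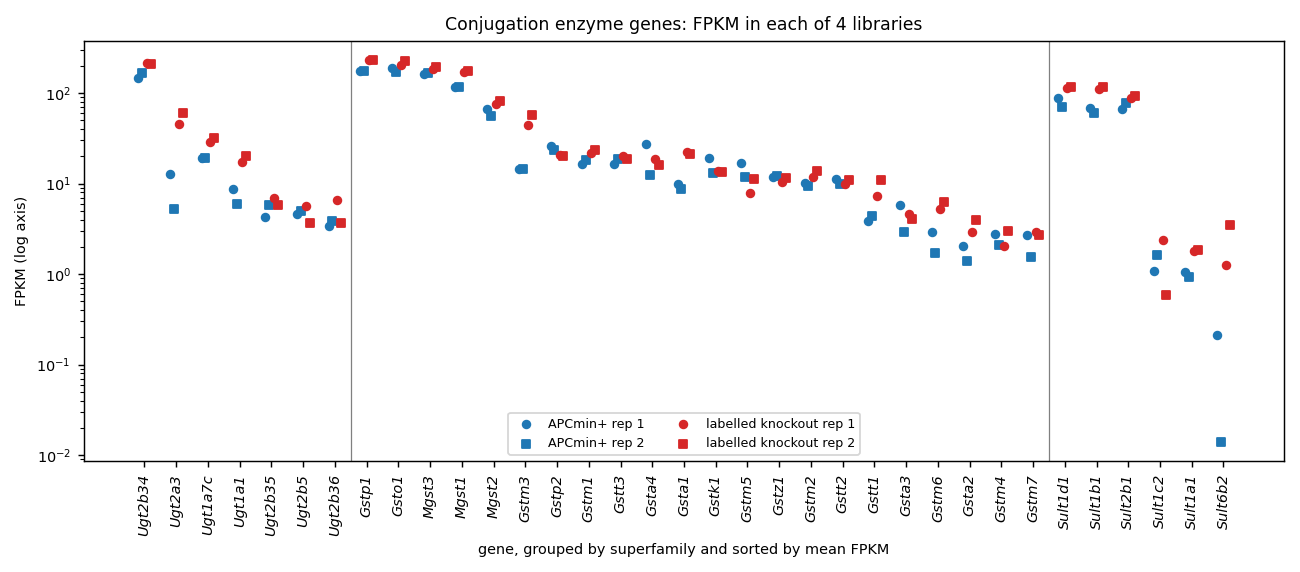
FPKM of each of the 35 genes (log axis) in the 2 APCmin+ libraries (blue) and the 2 libraries labelled knockout (red), with circles for replicate 1 and squares for replicate 2; vertical lines part the Ugt, Gst and Mgst, and Sult genes. The most abundant gene of each superfamily sits above 50 FPKM with tight replicates, while Ugt2a3, Gstm3 and Sult6b2 show the widest gaps between the groups.

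Several sets of cell type markers differed between the same libraries. All 16 enterocyte markers had positive log2 fold changes (median 0.95), against 28.3% of all genes. Limma called 3 of them higher, against 0.595% of all genes. Their summed level was 14312 and 16315 FPKM in the controls and 22977 and 26642 FPKM with the knockout label. The summed level of 8 markers of the proximal small intestine went from 499.5 and 340.5 to 1350.4 and 2194 FPKM, with 0 of the 7 tested called by limma, 5 higher at an unadjusted p under 0.05 and 2 called by voom. Fabp1 made up the largest part of that sum with the knockout label (609 and 1107 FPKM), Fabp1 and Lct are also among the enterocyte markers, and Slc40a1 went the other way (31.8 and 17.6 to 10.8 and 4.31 FPKM). Summed levels of 10 stem cell markers went from 316 and 259 to 174 and 177 FPKM, those of 10 proliferation markers from 250.3 and 233 to 171 and 172 FPKM, and those of 9 Paneth cell markers, 2 of them called lower, from 10803 and 12620 to 5172 and 8011 FPKM. Limma and voom called 0 of the 10 stem cell markers, with 5 lower at an unadjusted p under 0.05. Of all genes 19.1% were lower and 7.49% higher at that unadjusted p, and limma called 0.131% lower. Olfm4 made up most of their sum in control replicate 2 and in both knockout-labelled libraries, and Prom1 was high in control replicate 1 alone (66.4 FPKM, against 14.6, 16.3 and 14.9 FPKM), as were Lgr5, Sox9 and Tnfrsf19. The 5 listed tuft cell markers summed to 27.2 and 13.8 against 4.95 and 3.80 FPKM, with 1 called lower. Of 8 goblet cell markers 7 were negative (median -0.46), with 0 called, and 6 lay lower without overlap (75.0%, against 48.5% of all genes). After median-ratio scaling that count was 3, against 28.0% of all genes. Enteroendocrine markers were split, with 5 of 10 positive and a median of 0.04. The 6 distal markers ranged most widely, at 2483 and 9049 FPKM in the controls against 3335 and 1225 FPKM. In pooled tissue a larger number of cells of a type and more RNA per cell cannot be told apart, and the part that these shifts have in the values below was not tested.

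Markers of hepatocytes, colon and pancreas were low in most libraries, while those of leukocytes and of stroma and vessels were present in every library. Hepatocytes, which are rich in the same enzymes, had 4 of 7 markers (Apoh, Serpina1a, Fgb and Ahsg) outside the table, and the other 3 summed to between 1.54 and 15.6 FPKM, with the top value in control replicate 1. Alb, the albumin gene, gave 11.7 FPKM in that library and at most 0.189 FPKM in the other 3, and its part in the control values was not tested. The 10 leukocyte markers summed to between 57.6 and 74.4 FPKM and the 10 markers of stroma and vessels to between 231 and 324 FPKM. The table held 2 of 6 colon markers (summing to 3.09 to 8.13 FPKM) and 1 of 6 pancreas markers (4.89 to 19.9 FPKM).

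**Figure D2:**
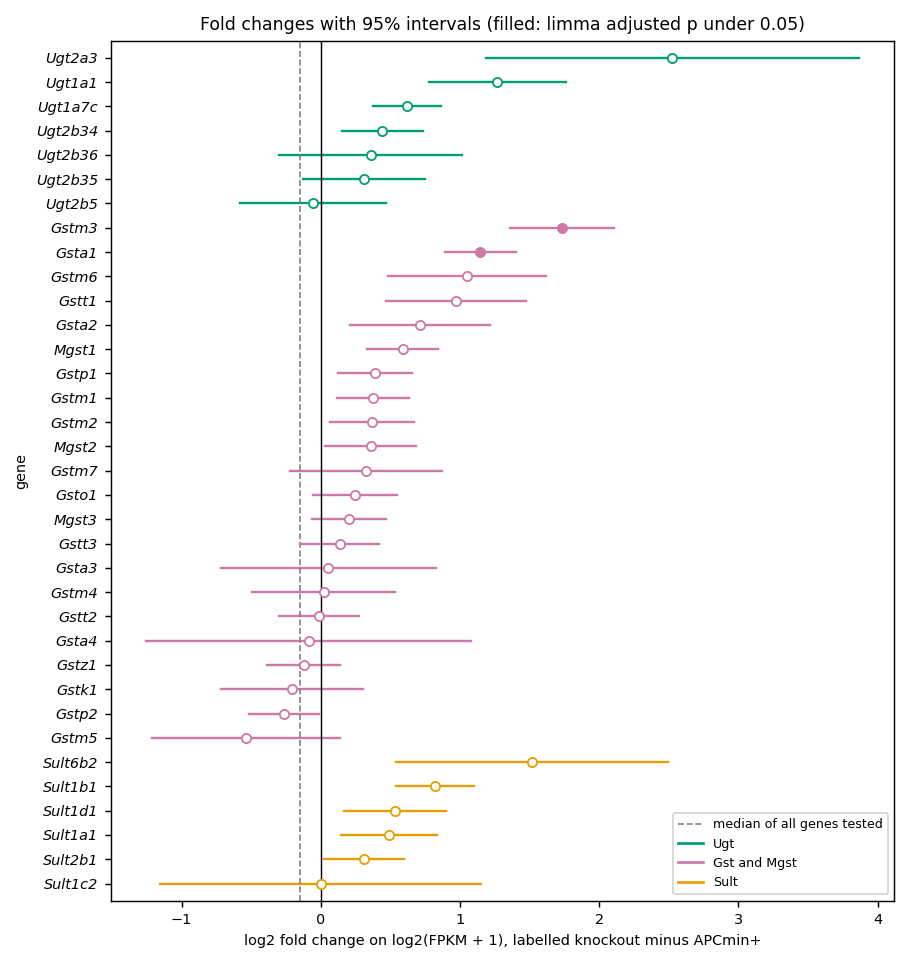
Log2 fold change of each gene on the log2(FPKM + 1) scale (x axis, libraries labelled knockout minus APCmin+) with its 95% interval from limma; filled points are past an adjusted p of 0.05 and the dashed line is the median of all genes tested at -0.15. Points lie to the right of 0 for 27 of 35 genes, from -0.54 for Gstm5 to 2.53 for Ugt2a3.

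Among the glucuronosyltransferases, Ugt2b34 carried most of the message. This gene (chromosome 5, 86889770 to 86906937, minus strand) had control values of 148 and 164 FPKM, against 216 and 208 FPKM under the knockout label. It was higher in both of the latter, by 0.44 on the log2 scale (SE 0.11), and missed the threshold (limma adjusted p = 0.118). Its share of all Ugt message was 73.6% and 78.4% in the controls and 66.0% and 62.5% with the knockout label.

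Ugt2a3, which encodes a transferase that accepts bile acids, had the largest log2 fold change of the 35 genes on the log2(FPKM + 1) scale; with a pseudocount of 0.1 and by voom the barely detected Sult6b2 was larger (3.55 and 4.997, against 2.66 and 2.70). It measured 12.7 and 5.27 FPKM in APCmin+ pools, and 45.9 and 59.7 FPKM in knockout-labelled pools, a log2 fold change of 2.53 (SE 0.46, 95% interval 1.19 to 3.87, limma adjusted p = 0.104). The groups did not overlap, and the control libraries differed 2.41-fold from each other on 1204 and 544 reads. The authors' deposited table gave Ugt2a3 a q-value of 8.03e-07. Leaving out a library leaves 1 in its group, assumed to vary like the other group, so only the log2 fold change is given. It was 3.09 without control replicate 1 and 1.96 without control replicate 2. Without knockout-labelled replicate 1 or 2 it was 2.71 and 2.34. Ugt2a3 took 6.33% and 2.52% of Ugt message in the controls and 14.0% and 17.96% with the knockout label.

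Ugt1a1, the enzyme that conjugates bilirubin, and Ugt1a7c share most of their exons at the Ugt1a locus of chromosome 1, where several first exons are spliced to a common set. Their reads could have been divided between them by the counting, and Dnajb3 overlaps Ugt1a7c on the opposite strand, so both values are uncertain. Ugt1a1 (88211959 to 88220002, plus strand) read 8.70 and 5.95 FPKM in APCmin+ against 17.5 and 20.1 FPKM with the knockout label (log2 fold change 1.27, SE 0.19, limma adjusted p = 0.0705). Ugt1a7c (88095001 to 88220002) was level between the controls, at 19.3 and 19.3 FPKM, and stood at 28.9 and 31.6 FPKM with the knockout label (0.62, SE 0.09, adjusted p = 0.0705). The ratio of Ugt1a1 to Ugt1a7c was 0.451 and 0.308 in APCmin+ and 0.606 and 0.638 with the knockout label. The log2 fold change of Ugt1a1 was 1.51 without control replicate 1 and 1.03 without control replicate 2. Without knockout-labelled replicate 1 or 2 it was 1.36 and 1.17.

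The promoter of Ugt1a1 is shown because it holds 1 of the 4 motifs searched. Promoters here are RefSeq sequences of build GRCm38.p6, running from 250 bases before to 50 after a start site, and 33 of the 35 genes had at least 1, with 43 in all. Capitals mark a match to GTTAATNAT, the core of an HNF1 motif, on the strand opposite to the gene, beginning 44 bases before the start site (chr1:88211709-88212008, plus strand). The letters occur on either strand in 2 of the 43 member promoters (4.65%) and in 0.801% of all 32851 promoters of the same length.

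Ugt1a1: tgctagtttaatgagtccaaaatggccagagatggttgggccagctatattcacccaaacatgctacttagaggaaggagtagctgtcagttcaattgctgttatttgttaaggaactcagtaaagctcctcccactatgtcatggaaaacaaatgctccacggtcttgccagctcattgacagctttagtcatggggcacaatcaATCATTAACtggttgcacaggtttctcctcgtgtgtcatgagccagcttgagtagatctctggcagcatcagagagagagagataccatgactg

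The low Ugt2b genes showed small differences. Ugt2b35, Ugt2b36 and Ugt2b5, whose substrates overlap with those of other Ugt2b enzymes, ran from 3.40 to 6.96 FPKM over all libraries. Their log2 fold changes were 0.31, 0.36 and -0.06, and each 95% interval included 0. For Ugt2b36 the higher library labelled knockout was 1.76-fold above the lower one. Of the 7 Ugt genes 6 had positive values and 5 lay higher in both libraries labelled knockout than in both controls (71.4%, against 14.9% of all genes). After median-ratio scaling that count was 6, against 28.2% of all genes. Limma and voom called 0, and 4 were higher at an unadjusted p under 0.05, against 7.49% of all genes. Ugt2b5 turned positive (0.09) after median-ratio scaling. Total Ugt message was 201 and 209 FPKM in the controls and 328 and 332 FPKM with the knockout label.

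**Figure D3:**
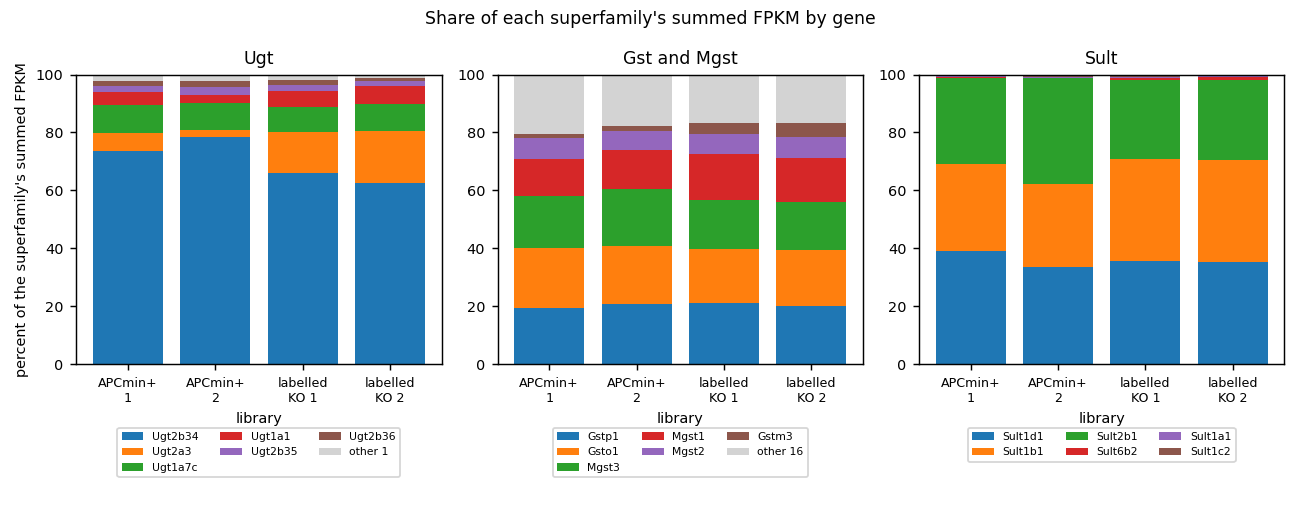
Percent of each superfamily's summed FPKM taken by its most abundant genes (colours) in each of the 4 libraries; grey is the rest. Ugt2b34 takes 73.6% and 78.4% of Ugt message in the controls and 66.0% and 62.5% with the knockout label, and Ugt2a3 the wider band there, while the leading genes of the Gst and Sult panels are shared by all 4 libraries.

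The mu class of glutathione S-transferases lies as a cluster of 7 listed genes on 149 kb of chromosome 3, and 1 of its members was called. Gstm3 (107963696 to 107969174, minus strand) rose from 14.6 and 14.4 FPKM in the controls to 44.4 and 57.6 FPKM with the knockout label. The control values were nearly equal and both libraries labelled knockout lay far above them. On the log2 scale it rose by 1.73 (SE 0.15, 95% interval 1.36 to 2.11; adjusted p by limma = 0.0412), on 786 to 3325 reads per library. The authors' deposited table gave Gstm3 a q-value of 4.00e-04. The call was lost without filter (limma adjusted p = 0.0528), with a stricter filter (0.0539), with ordinary moderation (0.0547) and with the replicate number as a block (0.151). The log2 fold change lay between 1.55 and 1.92 under every alternative tried, including those with a library left out.

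Its neighbours had smaller values. Gstm6, the next gene on 1 side, had control values of 2.93 and 1.69 FPKM, against 5.20 and 6.30 FPKM under the knockout label (log2 fold change 1.05, SE 0.22, limma adjusted p = 0.0956). Gstm2 and Gstm1, on the other side, gave 0.37 and 0.37, and both lay higher with the knockout label without overlap. At the ends of the cluster Gstm4 gave 0.02, with a 95% interval of -0.49 to 0.54, and Gstm5 gave -0.54, with an interval of -1.21 to 0.14. Gstm5 measured 17.0 and 11.7 FPKM in APCmin+ pools, and 7.81 and 11.3 FPKM in knockout-labelled pools, lower without overlap, although with median-ratio scaling its groups overlapped. It is transcribed from the opposite strand to the other 6, and 4933431E20Rik overlaps it antisense, which makes that value uncertain. The ratio of Gstm3 to Gstm1 was 0.881 and 0.797 in APCmin+ and 2.04 and 2.43 with the knockout label, so Gstm3 stood above Gstm1 in the latter alone. Mu class genes have close relatives, among which reads can be split.

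The Gstm3 promoter, printed because this gene had the smallest adjusted p of the 35, held none of the 4 motifs (chr3:107969125-107969424, minus strand, all in lower case).

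Gstm3: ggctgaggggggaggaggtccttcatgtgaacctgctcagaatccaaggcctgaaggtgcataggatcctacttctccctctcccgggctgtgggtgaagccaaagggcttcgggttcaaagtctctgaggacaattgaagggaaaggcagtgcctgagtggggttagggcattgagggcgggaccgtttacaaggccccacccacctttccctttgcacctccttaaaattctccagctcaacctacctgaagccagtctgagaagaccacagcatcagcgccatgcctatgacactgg

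The antioxidant response element core TGACNNNGC is a pattern bound by the transcription factor NRF2. It was found in 4 of the 43 member promoters (9.3%, in Gsta3, Gstm5, Gstm7 and Mgst1) and in 12.4% of all promoters. The dioxin response element core TNGCGTG, bound by the aryl hydrocarbon receptor, was found in 2 (4.65%, Gsta2 and Sult1d1) against 5.07% of all promoters. Only these patterns were searched, so the shares leave out variants of them.

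**Figure D4:**
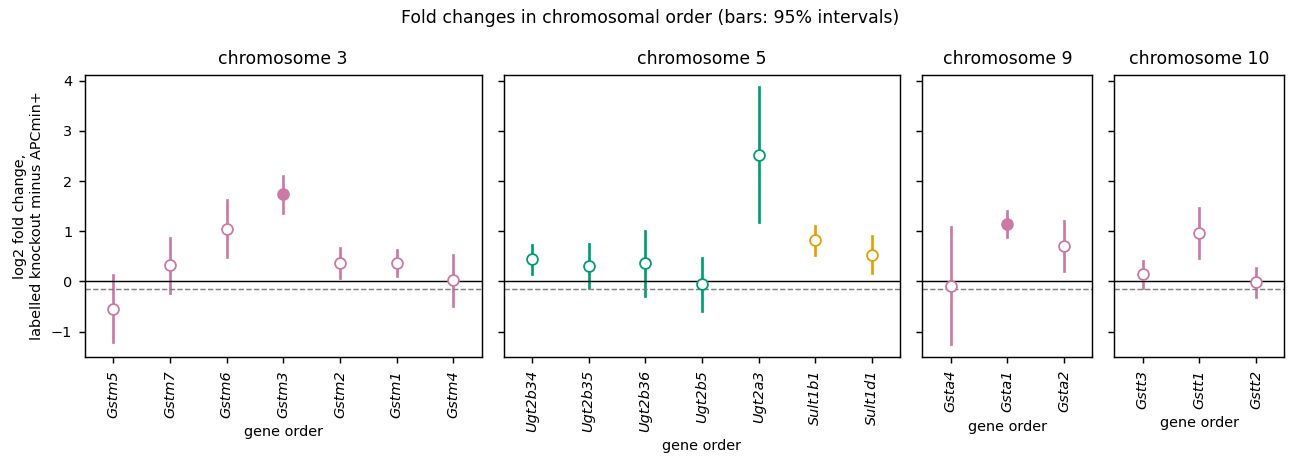
Log2 fold change (libraries labelled knockout minus APCmin+, bars are 95% intervals) of the genes of 4 chromosomal clusters in the order in which they lie, without distances; pink is Gst, green Ugt and yellow Sult, and filled points are past an adjusted p of 0.05. Values peak at Gstm3 on chromosome 3, Ugt2a3 on chromosome 5, Gsta1 on chromosome 9 and Gstt1 on chromosome 10, with lower neighbours on both sides.

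In the alpha class Gsta1 rose and its neighbours Gsta4 and Gsta2 did not pass. Alpha class enzymes conjugate electrophiles and reduce lipid hydroperoxides. Gsta1 (chromosome 9, 78230669 to 78242683, plus strand) read 9.77 and 8.76 FPKM in APCmin+ against 22.1 and 21.3 FPKM with the knockout label. Replicates differed by no more than 1.11-fold and the groups were far apart (log2 fold change 1.15, SE 0.10, 95% interval 0.89 to 1.40, limma adjusted p = 0.0417). The call was lost under the same 4 settings with the same adjusted p, and also without the mean-variance trend (0.0516). With a library left out the log2 fold change of Gsta1 ran from 1.08 to 1.22. Gsta2 was low, at 2.03 and 1.39 FPKM in the controls and 2.92 and 3.94 FPKM with the knockout label (0.71, SE 0.20, adjusted p = 0.125). Reads of these near copies could have been shared.

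The promoters of Gsta1 and Gsta2 are printed side by side because both genes were higher with the knockout label without overlap, and their start regions are alike. Over their whole 300 bases 74.6% of alignment columns were identical, where the median for 464 pairs of members on different chromosomes was 45.95%. Capitals mark bases that differ from, or have no partner in, the other promoter (chr9:78230419-78230718, plus strand, and chr9:78347096-78347395, minus strand). The dioxin response element core of Gsta2 begins 9 bases before its start site.

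Gsta1: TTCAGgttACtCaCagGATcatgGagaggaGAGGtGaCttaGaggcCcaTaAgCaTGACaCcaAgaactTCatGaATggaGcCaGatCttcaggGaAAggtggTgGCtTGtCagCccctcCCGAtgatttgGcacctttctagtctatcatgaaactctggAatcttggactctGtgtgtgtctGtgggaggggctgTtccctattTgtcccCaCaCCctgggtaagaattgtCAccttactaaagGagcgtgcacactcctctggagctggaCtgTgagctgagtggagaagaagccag

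Gsta2: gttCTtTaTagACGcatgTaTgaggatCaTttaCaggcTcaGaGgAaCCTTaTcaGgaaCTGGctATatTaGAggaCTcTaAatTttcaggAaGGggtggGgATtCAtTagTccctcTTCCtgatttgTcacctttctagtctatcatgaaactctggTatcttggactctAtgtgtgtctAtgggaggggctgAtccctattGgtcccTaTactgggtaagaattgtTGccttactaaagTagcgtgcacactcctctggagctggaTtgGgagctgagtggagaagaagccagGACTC

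Gsta4, which favours the lipid peroxidation product hydroxynonenal, had its widest gap between the control libraries. It stood at 27.1 and 12.5 FPKM in the controls, a 2.16-fold difference, and at 18.5 and 16.2 FPKM with the knockout label, within the range of the controls (log2 fold change -0.09, 95% interval -1.25 to 1.08). Its direction turned with the scaling and with control replicate 1: the value was 0.08 after median-ratio scaling, 0.01 after quantile normalization and 0.44 without that library. The distant Gsta3 on chromosome 1 showed a like spread between the controls, at 5.78 and 2.92 FPKM, and gave 0.05.

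Both pi class genes lie next to each other on chromosome 19 and had values of opposite sign. Gstp1, the abundant copy, which detoxifies electrophilic carcinogens, had control values of 175 and 177 FPKM, against 230.1 and 232 FPKM under the knockout label (log2 fold change 0.39, SE 0.10, limma adjusted p = 0.121). Gstp2 measured 26.1 and 23.6 FPKM in APCmin+ pools, and 20.7 and 20.3 FPKM in knockout-labelled pools (-0.26, SE 0.10, adjusted p = 0.176). Neither passed the threshold, and neither pair of groups overlapped. Median-ratio scaling put Gstp1 at 0.56 and Gstp2 at -0.10. The ratio of Gstp1 to Gstp2 within a library was 6.73 and 7.50 in APCmin+ and 11.1 and 11.5 with the knockout label. These genes are near copies, so reads could have been assigned to either.

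Their promoters were the most alike of all member pairs, with 76.6% identical alignment columns, and neither held a motif of the 4 searched. Both hold TGAGTCAGC, which differs from the searched core TGACNNNGC only by a G in place of its first C and so was not counted. They are printed because the neighbours differ in sign, with capitals for bases that differ from, or have no partner in, the other (chr19:4037863-4038162 and chr19:4042172-4042471, both minus strand).

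Gstp1: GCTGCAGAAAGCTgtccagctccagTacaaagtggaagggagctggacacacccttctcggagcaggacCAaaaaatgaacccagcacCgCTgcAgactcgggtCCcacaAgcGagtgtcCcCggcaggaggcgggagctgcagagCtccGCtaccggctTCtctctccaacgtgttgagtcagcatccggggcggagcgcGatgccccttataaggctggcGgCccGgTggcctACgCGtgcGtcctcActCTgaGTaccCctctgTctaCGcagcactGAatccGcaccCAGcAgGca

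Gstp2: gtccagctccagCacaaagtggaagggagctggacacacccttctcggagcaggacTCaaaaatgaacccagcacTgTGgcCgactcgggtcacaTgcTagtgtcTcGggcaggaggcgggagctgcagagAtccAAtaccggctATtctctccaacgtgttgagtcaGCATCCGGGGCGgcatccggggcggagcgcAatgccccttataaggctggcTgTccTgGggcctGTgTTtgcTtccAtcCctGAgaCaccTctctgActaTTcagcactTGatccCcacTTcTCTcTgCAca

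The other single-class enzymes showed small differences. Gsto1, an omega class thiol transferase and among the most abundant members, read 189 and 172 FPKM in APCmin+ against 206 and 223 FPKM with the knockout label (log2 fold change 0.25, SE 0.12, limma adjusted p = 0.241). Gstk1, the kappa class enzyme of mitochondria and peroxisomes, gave -0.21, and Gstz1, which works in tyrosine breakdown, gave -0.12. Median-ratio scaling moved them to -0.04 and 0.04, and Pomt2 overlaps Gstz1 on the opposite strand, which makes that value uncertain. Among the theta class genes on chromosome 10, Gstt1 had control values of 3.83 and 4.34 FPKM, against 7.36 and 10.8 FPKM under the knockout label (0.97, SE 0.19, adjusted p = 0.0931). Gstt3 on 1 side of it gave 0.14 and Gstt2 on the other -0.01, which median-ratio scaling turned to 0.15.

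The microsomal enzymes, which sit in membranes and also act in leukotriene metabolism and peroxide removal, were abundant and had close replicates. Mgst1 measured 116 and 116 FPKM in APCmin+ pools, and 173 and 176 FPKM in knockout-labelled pools (log2 fold change 0.59, SE 0.10, limma adjusted p = 0.0765). The authors' deposited table gave Mgst1 a q-value of 0.0285. Mgst3 read 162 and 167 FPKM in APCmin+ against 185 and 194 FPKM with the knockout label (0.20, SE 0.10, adjusted p = 0.272), and Mgst2, which an unnamed gene model overlaps on its own strand, gave 0.36. All 3 lay higher in both libraries labelled knockout than in both controls, and 0 of them passed by limma or by voom (2 at an unadjusted p under 0.05). Over all 22 Gst and Mgst genes 16 were positive, 13 did not overlap upwards (59.1%, against 14.9% of all genes) and 3 downwards (13.6%, against 48.5%). With median-ratio scaling 19 were positive, 15 did not overlap upwards and 1 downwards, where the shares of all genes were 49.1%, 28.2% and 28.0%. The median was 0.29.

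The sulfotransferases were dominated by 3 genes of similar level. Sult1b1, which sulfates thyroid hormones and phenols, had control values of 67.7 and 59.8 FPKM, against 111 and 116 FPKM under the knockout label. The groups were well apart and replicates within 1.13-fold of each other (log2 fold change 0.82, SE 0.11, limma adjusted p = 0.0598). Voom called Sult1b1 (adjusted p = 0.0443), and the authors' deposited table gave it a q-value of 0.0126. With 1 library left out in turn its log2 fold change ran from 0.73 to 0.91. Sult1d1, which sulfates catecholamines, lies next to it on chromosome 5 and measured 88.7 and 70.2 FPKM in APCmin+ pools, and 112 and 117 FPKM in knockout-labelled pools (0.54, SE 0.14, adjusted p = 0.122). Sult2b1, a cholesterol sulfotransferase, read 67.4 and 76.6 FPKM in APCmin+ against 87.1 and 91.9 FPKM with the knockout label (0.31, SE 0.11, adjusted p = 0.17). Fam83e and Gm31597 overlap Sult2b1 on the opposite strand and Spaca4 on the same, which makes that value uncertain.

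The Sult1d1 promoter is shown because it alone held 2 of the motifs (chr5:87568957-87569256, minus strand). The first run of capitals is the HNF1 core on the strand of the gene, beginning 79 bases before the start site, and the second is the dioxin response element core on the opposite strand, beginning 47 bases before it. The HNF4 motif CAAAGTCCA was found in 1 member promoter, 26 bases after the start site of the Sult1b1 promoter at chr5:87536173-87536472 (2.33% of the 43, and 0.475% of all promoters). These matches are letters in a window and not shown to be sites.

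Sult1d1: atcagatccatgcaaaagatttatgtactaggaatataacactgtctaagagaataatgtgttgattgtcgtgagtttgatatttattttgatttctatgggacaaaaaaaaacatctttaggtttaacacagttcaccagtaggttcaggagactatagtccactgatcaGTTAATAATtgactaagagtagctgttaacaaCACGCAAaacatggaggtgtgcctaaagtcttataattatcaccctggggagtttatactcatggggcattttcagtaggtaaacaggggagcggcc

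Sult6b2 was almost absent from the controls. It rested on 14 reads and 1 read there (0.212 and 0.0139 FPKM) and on 87 and 244 reads with the knockout label (1.27 and 3.45 FPKM). Per library total the summed reads were 21.8-fold higher, with an exact 95% interval of 13.0 to 39.4 that covers counting error only. The replicates of the second group differed 2.72-fold, and limma gave a log2 fold change of 1.52 (SE 0.36, adjusted p = 0.119). Sult1a1, a phenol sulfotransferase that Slx1b overlaps on the same strand, was near 1 FPKM in the controls and gave 0.49. Sult1c2 showed no order between the groups: it had control values of 1.07 and 1.61 FPKM, against 2.40 and 0.583 FPKM under the knockout label (0.00, 95% interval -1.15 to 1.15). Since Sult6b2 passed the filter through the knockout-labelled libraries alone, it had to differ. Of the other 5 Sult genes 4 lay higher in both libraries labelled knockout and the same 4 were higher at an unadjusted p under 0.05, where the shares of all genes were 14.9% and 7.49%. Limma called 0 Sult genes and voom 1.

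The lists around donor supply had both positive and negative values. They also hold genes that do not make a donor. Among these are Pgm3 of another sugar route, Uxs1, which uses UDP-glucuronic acid, and Chac1 and Chac2, which break down glutathione. Counts and medians of the lists therefore do not describe donor synthesis alone. Of 9 genes listed for UDP-glucuronic acid supply 6 were positive (28.3% of all genes) around a median of 0.14, with 0 called. Groups did not overlap upwards for 4 (44.4%, against 14.9% of all genes) and downwards for 3 (33.3%, against 48.5%). After median-ratio scaling these counts were 7 and 0, where the shares of all genes were 28.2% and 28.0%. Ugdh, which oxidizes UDP-glucose to the donor, measured 76.2 and 73.9 FPKM in APCmin+ pools, and 97.4 and 112 FPKM in knockout-labelled pools (log2 fold change 0.47, SE 0.11, limma adjusted p = 0.109). Glutathione synthesis and recycling had 12 listed genes, 5 positive and 7 negative, with a median of -0.10. After median-ratio scaling 7 were positive, where 49.1% of all genes are. Gclc, the catalytic subunit of the rate-limiting ligase, read 18.2 and 21.8 FPKM in APCmin+ against 34.9 and 39.0 FPKM with the knockout label (0.85, SE 0.13, adjusted p = 0.0683), and Oplah and Slc3a2 gave 0.85 and 0.67. Genes that recycle glutathione or supply its NADPH had negative values without overlap, which were -0.47 for Pgd, -0.35 for Gsr and -0.36 for G6pdx (limma adjusted p = 0.106, 0.133 and 0.136). These 3 were chosen after their values were seen, and with median-ratio scaling they gave -0.30, -0.18 and -0.19. Of the 12 genes 4 lay lower without overlap (33.3%, against 48.5% of all genes) and 4 higher (33.3%, against 14.9%). Of 11 genes of PAPS and sulfate supply 5 were positive around a median of -0.06. Bpnt1, which clears the spent donor, gave 0.91 (adjusted p = 0.0936), and Papss2, a PAPS synthase, gave 0.29. Across these 3 lists limma and voom called 0 genes. At an unadjusted p under 0.05 came 7 higher and 3 lower, where the shares of all genes were 7.49% and 19.1%.

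Among 10 export pumps Abcc2 rose, and 4 of the 10 had positive values (5 with median-ratio scaling), where the shares of all genes were 28.3% and 49.1%. Abcc2 encodes MRP2, which pumps glucuronide and glutathione conjugates across the apical membrane. It had control values of 43.9 and 41.2 FPKM, against 99.5 and 97.6 FPKM under the knockout label, with close replicates on both sides (log2 fold change 1.19, SE 0.10, limma adjusted p = 0.0412). The call was lost without filter (adjusted p by limma = 0.0528), with the stricter filter (0.0539), with ordinary moderation (0.0545) and with the replicate number as a block (0.151). With a library left out the log2 fold change of Abcc2 ran from 1.15 to 1.24. The exporter Abcc6 gave 0.41 and Abcc1, a basolateral pump, -0.70, and the median of the list was -0.21.

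Among enzymes that turn glutathione conjugates into mercapturates, or act on mercapturates as Acy1 and Acy3 do, most values were positive. Of 11 listed genes 9 were positive (28.3% of all genes) around a median of 0.45. Groups did not overlap upwards for 8 (72.7%, against 14.9% of all genes) and downwards for 1 (9.09%, against 48.5%). Limma and voom called 0, while 6 higher and 1 lower had an unadjusted p under 0.05, against 7.49% and 19.1% of all genes. Acy3, an aminoacylase that acts on mercapturates, measured 15.4 and 16.9 FPKM in APCmin+ pools, and 30.3 and 38.7 FPKM in knockout-labelled pools (log2 fold change 1.04, SE 0.14, limma adjusted p = 0.0638). Nat8, the acetyltransferase of the last step, gave 1.16 (adjusted p = 0.122) and Acy1 gave 0.55. Anpep of this list is also an enterocyte marker. The 7 hydrolases that take conjugates apart had a median of -0.07, and Gusb, the beta-glucuronidase, read 19.97 and 11.8 FPKM in APCmin+ against 8.95 and 9.17 FPKM with the knockout label (-0.71, adjusted p = 0.183). Arsb and Arsg of that list gave -0.67 and 0.65. The 5 listed transferases of acetyl, methyl and amino acid groups had a median of 0.04, led by As3mt at 0.46 (adjusted p = 0.094). Limma and voom called 0 genes of these last 2 lists, with 2 higher and 2 lower at an unadjusted p under 0.05.

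**Figure D5:**
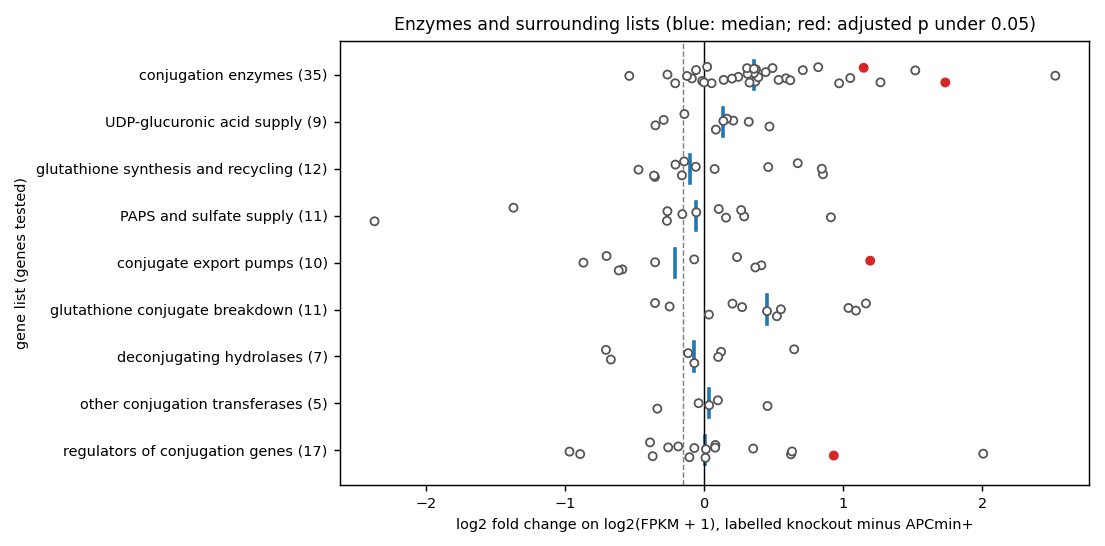
Log2 fold change of every tested gene (points) of the conjugation enzymes and of 8 lists around them, with the list median in blue, the median of all genes dashed and genes past a limma adjusted p of 0.05 in red. The enzymes (median 0.36) and the breakdown list (0.45) sit to the right, while the donor and pump lists straddle 0.

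The 17 regulators of these genes had a median of 0.01, with 9 positive and 8 negative, where 28.3% of all genes were positive. After median-ratio scaling 11 were positive, where 49.1% of all genes are. Limma called 1 of the 17 higher and voom 2, where 0.595% and 0.95% of all genes were called higher. Ppara, the fatty acid receptor, rose from 4.67 and 5.05 FPKM in the controls to 9.82 and 10.5 FPKM with the knockout label (log2 fold change 0.93, SE 0.11, limma adjusted p = 0.047). Voom also called it (adjusted p = 0.0302). The limma call was lost with median-ratio scaling (0.0524), with quantile normalization (0.0506), without the mean-variance trend (0.0677) and under every setting that ended the Abcc2 call. With a library left out the log2 fold change of Ppara ran from 0.89 to 0.98. Nr1i3, which encodes the xenobiotic receptor CAR, had control values of 3.97 and 2.86 FPKM, against 13.6 and 20.2 FPKM under the knockout label (2.01, SE 0.23, adjusted p = 0.0573). Nr1i2, the receptor PXR, measured 33.3 and 37.9 FPKM in APCmin+ pools, and 51.2 and 59.7 FPKM in knockout-labelled pools (0.62, adjusted p = 0.0935). In all 3 receptors the groups did not overlap. Of the 17 regulators 5 did not overlap upwards (29.4%, against 14.9% of all genes) and 7 downwards (41.2%, against 48.5%), and median-ratio scaling turned these counts to 8 and 2 (28.2% and 28.0% of all genes).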

How the data were processed

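RNA-seq of 4 crypt libraries was read from 1 table. The authors' deposited FPKM values carry no unit in the file headers; they were read as FPKM because for 13359 of 13359 genes 1 length turned the 4 values into whole reads within 0.002 reads. The ratios of library totals were inferred from low genes, and the totals from the requirement that gene lengths be whole bases. Of 13527 entries 168 repeated another exactly and were used once. The submitters' processing notes name HISAT2 and mm10. For the counter, the annotation and strand, the sources used here give nothing. The same holds for how the deposited log2 fold changes, p-values and q-values were obtained. Per-sample columns left unused numbered 0. ChIP-seq libraries were not analysed here.

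Limma 3.58.1 in R 4.3.3 was fitted to log2(FPKM + 1) over all 12948 genes with at least 1 FPKM in 2 libraries, with genotype as the only term, a mean-variance trend and robust moderation. P-values were Benjamini-Hochberg adjusted over all genes at a threshold of 0.05, and intervals are at 95%. Residual degrees of freedom were 2. Fold changes on this scale understate low genes. Voom used the recovered reads. The limma fit, and the recovery of reads with the library totals given, were run on simulated data. Voom and the inference of the library totals were not. By rule, values per library are given for members past the threshold and for the 3 most abundant and the 3 of smallest p in each superfamily. The rule also takes members of at least 5 FPKM whose replicates differ over 2-fold. Each surrounding list names up to 3 genes of smallest p. The members, lists and motifs were chosen with earlier results of these data known. Other members named were singled out after their values were seen. Of these, Gstm5, Gstm6, Gsta2, Gsta3, Gstp2, Gstt1 and Sult1c2 are shown with values per library outside the rule.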

Additional observations from a re-analysis of the deposited data

How the results depend on the processing

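The number of conjugation enzymes called higher (2) fell to 0 without a filter, to 0 with a filter at a mean of 5 FPKM, to 0 with ordinary moderation and to 1 without the mean-variance trend, and stayed at 2 or 3 with the other scalings, the smaller pseudocount and voom. The log2 fold changes were the same under the filter, moderation and trend settings, 1.73 for Gstm3 and 1.15 for Gsta1, and so were they with the replicate block (limma adjusted p = 0.151 for both). With 1 library left out in turn its group has 1 left, so calls are not counted and log2 fold changes are given. No setting that kept every library called a member lower. The surrounding lists, with 2 genes called higher, gave 1 after median-ratio scaling, 1 without the trend, 0 without a filter, 0 with the filter at 5 FPKM and 0 with ordinary moderation. They gave 0 to 5 higher and 0 to 2 lower with a library left out, the top counts being without control replicate 2. With a library left out Gstm3 ran from 1.55 to 1.92 and Gsta1 from 1.08 to 1.22, and over all alternatives Gsta1 reached 1.31 with median-ratio scaling. With the replicate block, the number as an added term, 0 members and 0 list genes were called; same-numbered libraries shared only a number (correlation of their deviations 0.045 over genes). Members lower in all pairings (3) came to 1 with median-ratio scaling and 1 with quantile normalization. With a library left out, which leaves 2 pairings, they came to between 3 and 7. Members higher in all pairings (23) were 26 with either of these scalings and 18 of the 25 tested with the filter at 5 FPKM. With a library left out they were 23 to 27 of 34 or 35 tested. The median log2 fold change of all members (0.36) was 0.53 and 0.48 under those scalings, and that of the Sult genes (0.51) was 0.65 with median-ratio scaling, 0.67 with the pseudocount of 0.1 and 0.69 with voom. Gsta4 turned from -0.09 to 0.079 and 0.0127 under those scalings and to 0.0046 without knockout-labelled replicate 2, and ran from -0.62 to 0.44 with a library left out. Precision is limited by 2 pools a group; all members but Sult6b2 had at least 41 reads in every library.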
